A study of Mus musculus with 2 samples.

Results

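Among the protein-coding genes of the mouse annotation GENCODE M21, 67 of 21938 on chromosomes 1 to 19, X and Y have symbols that begin with Hist1h, Hist2h, Hist3h or Hist4h, and these 67 clustered histone genes are described here. They comprise 6 genes of the linker histone H1 and, for the core histones, 18 of H2A, 18 of H2B, 12 of H3 and 13 of H4. Joining genes less than 100 kb apart gave 7 loci. One lies on chromosome 3 (Hist2h2ab to Hist2h2bb, 10 genes) and one on chromosome 11 (Hist3h2ba to Hist3h2a, 2 genes). Chromosome 13 holds 4, which run from Hist1h2bl to Hist1h2br (18 genes), from Hist1h2ah to Hist1h2bj (5 genes), from Hist1h4h to Hist1h1a (29 genes) and from Hist1h2ba to Hist1h2aa (2 genes). Hist4h4 on chromosome 6 had no other member within 100 kb and is a locus of 1 gene.

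The measurement was chromatin immunoprecipitation with an antibody to CTCF, followed by sequencing, in whole lungs of B6NCrl mouse embryos at day 14.5. There was 1 group of 2 samples, replicates 1 and 2, with no second genotype or treatment. Males and females were mixed, and the tissue was ground after lungs from more than 1 dissection had been combined. The labels trace both replicates to a single biosample and donor record, so agreement between them speaks to technical repeatability and may say nothing of other animals.

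Clustered histone genes supply the bulk of the histones that package newly copied DNA, and most are transcribed in S phase. Their transcripts usually end in a stem-loop instead of a poly(A) tail, and many H2A and H2B genes stand head to head around a shared promoter. CTCF, which has many zinc fingers, acts at insulators and at the anchors of chromatin loops. Its motif is not symmetric, and the anchors of a loop most often carry motifs that point towards each other.

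A site is the summit of a peak in the optimal list of reproducible peaks, of which 54943 lay on these chromosomes, and its signal is the value that the peak caller gave in that list. Signals were not scaled between lists. A peak list gives no number of reads, and the depth of the samples is therefore unknown. Positions are on mm10 (GRCm38). The CTCF motif was a 20-base matrix learned from strong sites elsewhere in the genome. A site carried it when a word above the threshold lay within 50 bp of the summit.

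The sequences below are those on which the results turn, read from the GRCm38 assembly and written 5′ to 3′ on the strand that carries the motif. Capitals mark the bases shared with the most frequent base of the matrix, which reads as follows.
CTCF matrix: TGGCCACCAGGGGGCGCTAG
The words under sites at member promoters that reached the threshold lay upstream of Hist1h4j (chr13:21734276-21734295), past the end of Hist1h4c (chr13:23697558-23697577), upstream of Hist2h4 (chr3:96263469-96263488) and in the coding region of Hist3h2a (chr11:58954977-58954996). Each of these was on the reverse strand of the chromosome.
Hist1h4j: TGGCCACtAGaGGGCaCTct
Hist1h4c: ctGCCACaAGaGGGCGgcgt
Hist2h4: gaaCCggtAGaGGGCagaga
Hist3h2a: ccaaCtgCAGGtGGCGCggG
The next word is shown because it recurs, base for base, in 14 of the 18 H2A genes, for example on the forward strand of Hist1h2ak (chr13:21753569-21753588). Each copy lies on the strand opposite to its own gene.
H2A common word: ccagCtgCAGGtGGCGCggG
The last pair lies at the outer edges of the first and second loci of chromosome 13 and faces inward. The first is on the forward strand under a summit 846 bp before Hist1h2bl (chr13:21714909-21714928), and the second on the reverse strand under a summit 654 bp past Hist1h2bj (chr13:22044314-22044333).
Before Hist1h2bl: TGGCCACaAGatGGCagaAa
Past Hist1h2bj: TGGCCACaAGatGGaGacAt

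Few promoters of clustered histone genes had a CTCF site. A site lay within 1 kb of the transcription start site (TSS) of 10 of the 67 members, which is 14.9% (95% Wilson interval 8.31% to 25.3%), against 26.6% of all protein-coding genes (5837 of 21938). Intervals here cover counting error only and treat neighbouring genes as independent, which they are not. In the more stringent conservative list, 9 members had a site (13.4%), against 25.4% of protein-coding genes. Peaks of both replicates among the strongest 100000 of each lay within 1 kb of 13 members (19.4%), against 34.4% of protein-coding genes. Any listed peak of both replicates was near 27 members (40.3%, 29.4% to 52.3%), against 50.4% of protein-coding genes. No listed peak of either replicate was near 17 members (25.4%), against 31.1% of protein-coding genes. The members were thus below the background share at each level of stringency, and were no more often without any peak. For any listed peak of both replicates, however, the interval includes the background share.

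**Figure D1:**
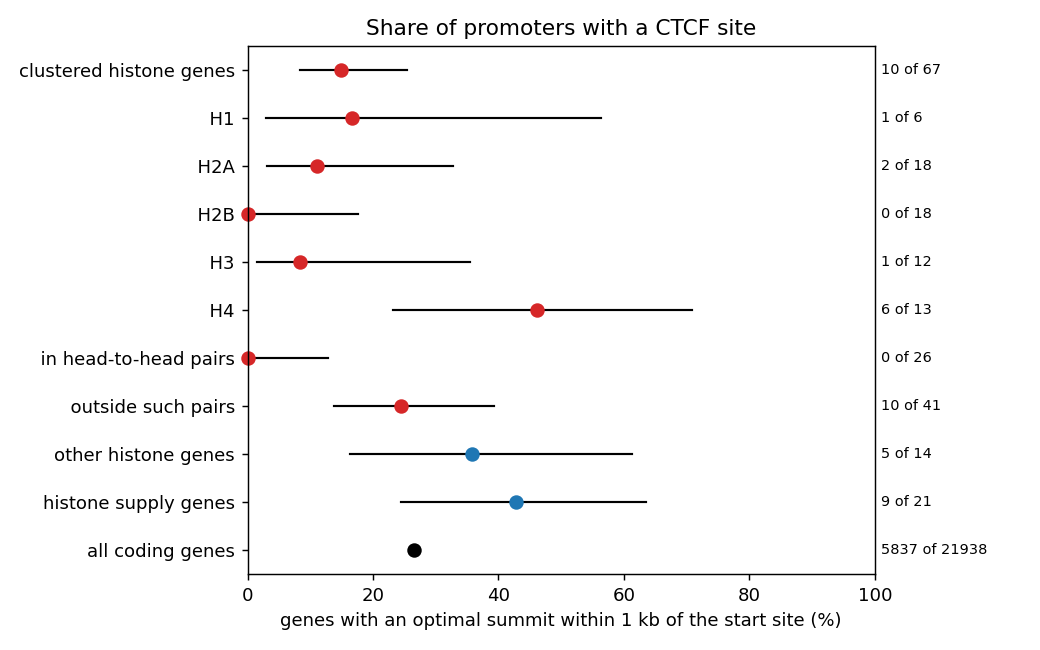
The horizontal axis gives the percentage of genes with an optimal summit within 1 kb of the TSS; points are shares, lines 95% Wilson intervals, and the counts stand at the right. Of the histone types, H4 stands highest (6 of 13) and H2B lowest (0 of 18), and no gene of a head-to-head pair of members has a site.

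The share of promoters with a site varied by histone type. H4, a core histone, had 6 of 13 genes with one (46.2%, 23.2% to 70.9%), while the members of other types together had 4 of 54 (7.41%, 2.92% to 17.6%). The share of all protein-coding genes, 26.6%, lies within the H4 interval and above that of the other types. The split between H4 and other types was noticed in the values and no test was made of it. H1 had 1 of 6, H2A 2 of 18, H3 1 of 12 and H2B 0 of 18. The H2B count depended on the list: the strongest peaks of replicate 2 alone put a summit near Hist1h2bm and those of replicate 1 alone put one near Hist1h2bb. H4 kept 5 or 6 genes with a site in the conservative list and in both lists of 1 replicate. It had 4 within 500 bp and 1 among the strongest 10000 optimal peaks. Within 2 kb it stayed at 6, while the members of all types with a site rose from 10 to 18. The split therefore depended on the window.

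The sites at H4 promoters spanned the widest range of signal. Values given below for the optimal list or for a replicate are signals, each on the scale of its own list. Hist1h4j had the strongest, 767 bp upstream of the TSS, with 245.3 in the optimal list, 140.9 in replicate 1 and 101.3 in replicate 2. It ranked above 88.8% of all optimal sites and its word scored 25.3, the highest in any member promoter window. Hist1h4c had 2 sites. The stronger, 73 bp past the 3′ end of the gene and 892 bp from the TSS, had a signal of 163.0 in the optimal list, 85.9 in replicate 1 and 78.2 in replicate 2. The weaker, 37 bp into the gene and without a motif, had 31.4 in the optimal list, 16.0 in replicate 1 and 14.2 in replicate 2. Both replicates therefore placed the larger peak at the end of this gene and not at its start.

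Hist2h4, the H4 gene of the chromosome 3 locus, had a site 160 bp upstream of its TSS, with 62.5 in the optimal list, 41.1 in replicate 1 and 22.2 in replicate 2. Hist1h4a had one 989 bp from the TSS, 451 bp past its 3′ end, with 62.3 in the optimal list, 38.2 in replicate 1 and 23.1 in replicate 2. Hist1h4f had one 49 bp upstream, with 48.97 in the optimal list, 21.0 in replicate 1 and 27.7 in replicate 2. Replicate 2 was the higher here, whereas replicate 1 was the higher at every other member promoter site matched in both. Hist4h4 had the least secure site, 266 bp into the gene, with 17.8 in the optimal list and 14.0 in replicate 1. It had no replicate 2 summit within 100 bp, the strongest replicate 2 peak within 1 kb had 4.34, and the conservative list did not hold it.

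The remaining 7 H4 genes had no site within 1 kb. They are Hist1h4b, Hist1h4d, Hist1h4h, Hist1h4i, Hist1h4k, Hist1h4m and Hist1h4n. Of these, Hist1h4b had a listed peak in each replicate, with 5.39 in replicate 1 and 4.94 in replicate 2, which are low values. Hist1h4m and Hist1h4n have promoters that are nearly identical copies, described further on.

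Of the linker histone genes, Hist1h1c alone had a site, 65 bp into the gene, with 34.3 in the optimal list, 21.1 in replicate 1 and 14.5 in replicate 2. Hist1h1e had weak peaks of both replicates among the strongest 100000, with 6.81 in replicate 1 and 5.11 in replicate 2. Hist1h1d and the testis linker histone gene Hist1h1t had no listed peak of either replicate within 1 kb.

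Of the H3 genes, Hist1h3e had a site 951 bp upstream of its TSS, with 100.05 in the optimal list, 62.7 in replicate 1 and 38.1 in replicate 2. It carried no word above the threshold. Hist1h3b had peaks among the strongest 100000 of both replicates, with 6.26 in replicate 1 and 5.07 in replicate 2.

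Of the H2A genes, Hist3h2a and Hist2h2ab had sites. Hist3h2a, which shares its TSS with Trim17, had one summit 306 bp and one 522 bp into the gene, with signals of 112.7 and 8.23 in the optimal list. Replicate 2 had 45.5 at the first and 7.28 at the second, whereas replicate 1 had 70.1 at the second and no summit within 100 bp of the first. The replicates thus placed the stronger summit at different points of 1 occupied stretch. At Hist2h2ab the summit lay 487 bp upstream, inside Bola1 and 331 bp from the Bola1 TSS, with 40.5 in the optimal list, 23.2 in replicate 1 and 19.4 in replicate 2. Of the pair, the Bola1 TSS is therefore the nearer.

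**Figure D2:**
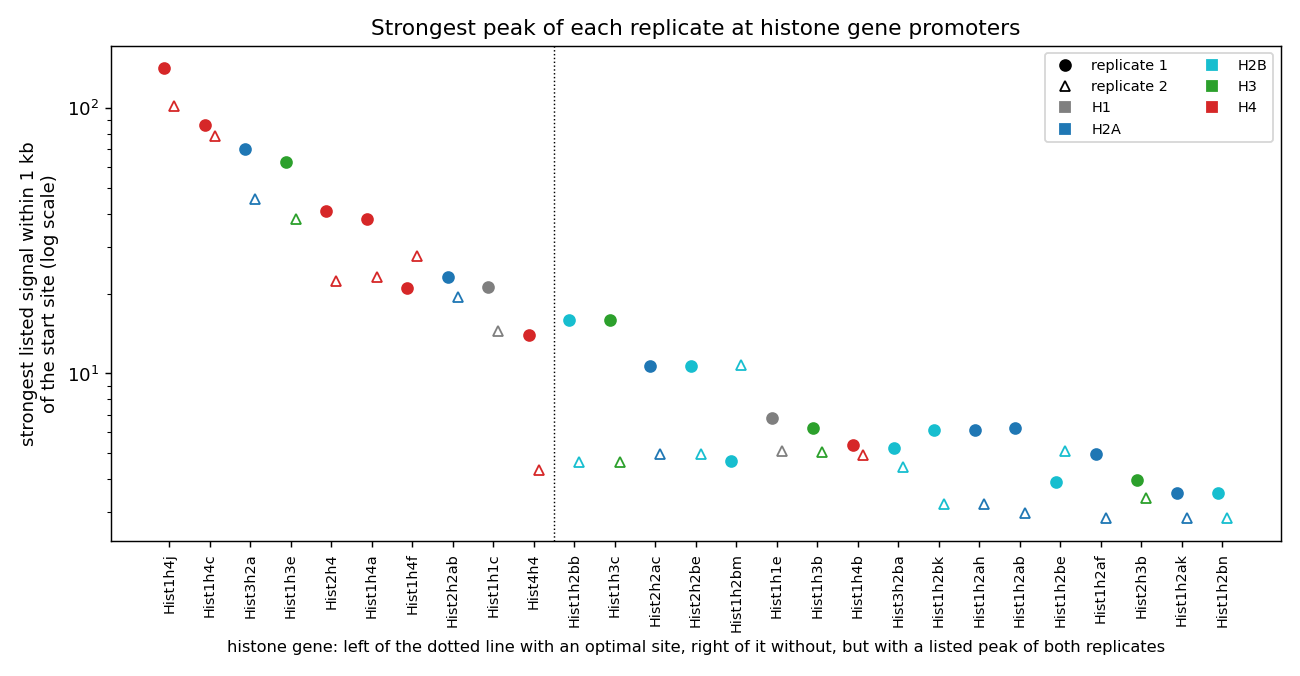
The vertical axis, on a log scale, gives the strongest listed signal within 1 kb of the TSS in replicate 1 (filled circles) and in replicate 2 (open triangles), for the 10 members with an optimal site (left of the dotted line) and the 17 without one that had a listed peak of both replicates (right). Colours give the histone type; Hist1h4j is highest in both replicates, and Hist4h4 lies among the members without a site in replicate 2.

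The median strength of these sites was near that of promoter sites in general. The 12 sites at member promoters had signals from 8.23 to 245.3 with a median of 55.6, against a median of 49.7 over the 6073 optimal sites at all protein-coding promoters. Of the 12, 5 lay upstream of the gene, 5 inside it and 2 past its 3′ end. A motif was present at 4 of 12 (33.3%, 13.8% to 60.9%), against 29.8% of sites at all protein-coding promoters. Over all optimal sites of the genome the share with a motif was 60.9%.

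No member paired head to head with another member had a site at its promoter. Such pairs, whose TSSs faced apart within 1 kb, numbered 13 and held 26 members; 12 were an H2A gene with an H2B gene, and the other was Hist1h2bh with Hist1h3f. The distance between the paired TSSs ran from 176 to 660 bp with a median of 268 bp. None of the 26 had a site within 1 kb (upper Wilson limit 12.9%), against 41% of the 1460 other protein-coding genes in head-to-head pairs. Among members outside such pairs, 10 of 41 had a site (24.4%, 13.8% to 39.3%). One of those, Hist2h2ab, stands head to head with Bola1, 0.156 kb away. No pair holds an H4 gene, so the 6 H4 genes with a site are all among these 10. H2B, which stands in every pair, had no site at any of its 18 genes, paired or not. Pairing and histone type thus overlap, and their separate parts were not tested.

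The count of none among paired members depended on the window. With it widened to 2 kb, 6 of the 26 paired members had a site, namely Hist2h2ac, Hist2h2be, Hist1h2bl, Hist1h2ai, Hist1h2ag and Hist1h2bj, and within 5 kb it was 7 of the 26. Others were far from any site, such as Hist1h2ak at 19530 bp and Hist1h2ap at 95243 bp. Within 2 kb, 18 members in all had a site (26.9%), against 33.1% of protein-coding genes, and H2B counted 3. At 500 bp the members with a site numbered 7 (10.4%), against 20.05% of protein-coding genes. Within 1 kb, the strongest peaks over the shared promoter of Hist2h2ac and Hist2h2be had 10.7 in replicate 1 and 4.96 in replicate 2. These were below the lowest matched signals at member promoter sites, which were 14.0 in replicate 1 and 7.28 in replicate 2.

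Many members have near-identical copies, which bears on where reads could be placed. The share of 36-base words found once in the genome, within 1 kb of the TSS, had a median of 77.2% among members, against 98.9% among protein-coding genes. Below 50% were 10 members, against 6.36% of protein-coding genes. None of the 10 had a site and 8 had no listed peak of either replicate; among all protein-coding genes below 50%, 0.86% had a site. Of the 57 members at or above 50%, 10 had a site (17.5%, 9.82% to 29.4%), against 28.4% of the protein-coding genes at or above 50%. The members' share was below the background in this comparison as well, but its interval includes the background share. The read length and the treatment of reads that match several places are not stated in the labels or file headers, so the part that mapping plays in the empty promoters was not tested.

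Among members at or above 50%, only the denominators of the H4 and head-to-head counts could change, because no member below 50% had a site. There, 6 of 11 H4 genes had a site (54.5%), 0 of 22 paired members did (upper Wilson limit 14.9%) and 10 of 35 members outside pairs did (28.6%). Those 10 include the 6 H4 genes. The 0 for paired members followed from the 0 of 26 over all pairs, so it adds no separate support. The unique share of these 22 paired members ran only from 57.8% to 90.5%, below the 98.9% median of protein-coding genes. Whether mapping plays a part there was not tested.

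**Figure D3:**
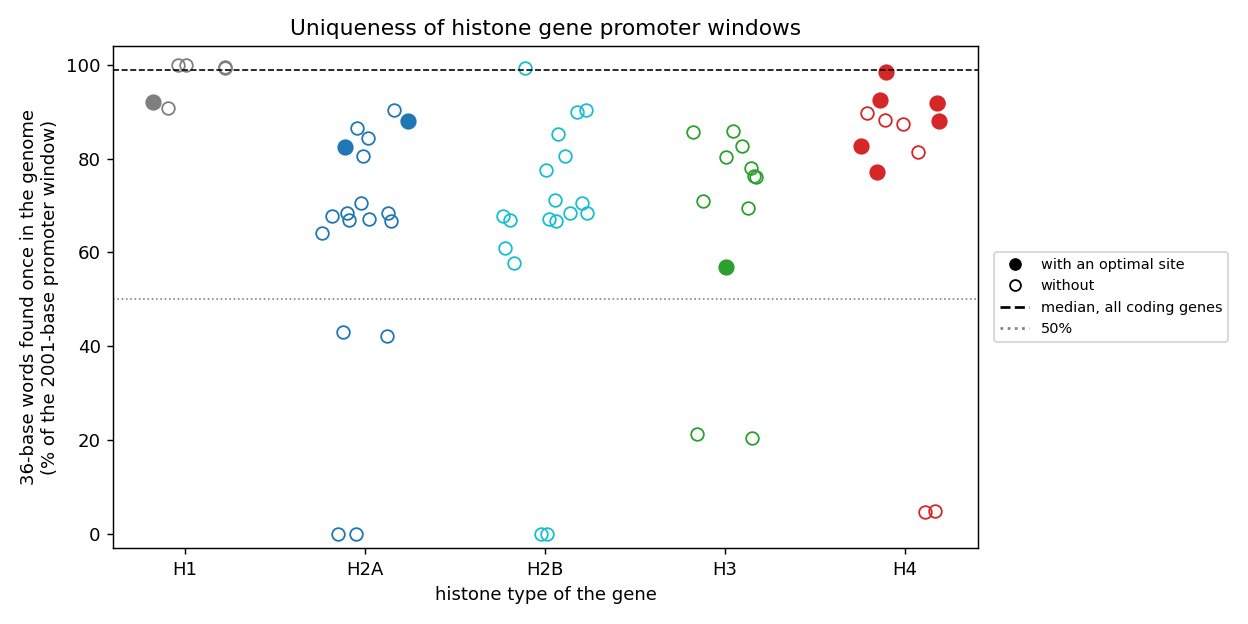
The vertical axis gives the percentage of 36-base words found once in the genome, within 1 kb of the TSS, for each of the 67 members by histone type; filled points had an optimal site and open points had none. The dashed line is the median of all protein-coding genes (98.9%) and the dotted line is at 50%; no filled point lies below it.

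The 6 members with the least unique windows sit together at the end of the first chromosome 13 locus. Hist1h2bq, Hist1h2ao, Hist1h4m, Hist1h4n, Hist1h2ap and Hist1h2br span 30.9 kb, and between 0 and 5.00% of their words were unique. That stretch held 2 listed peaks in replicate 1, 1 in replicate 2 and 1 in the pooled list, with a highest replicate 1 signal of 3.86. The other 4 below 50% were Hist2h3c2, Hist2h2aa2, Hist2h2aa1 and Hist2h3c1 of the chromosome 3 locus. In these 10 windows the absence of a site cannot be read as absence of CTCF.

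The recurring H2A word lies in such repeated sequence. It scored 9.95, just under the threshold of 10.5, in 14 of the 18 H2A genes, between 240 and 352 bp from their TSSs. None of the 14 copies had an optimal summit; 1 had a listed replicate 1 peak and 2 had a listed replicate 2 peak. Around the copies the share of unique 36-base words ran from 0 to 38.3% with a median of 7.41%. At Hist1h2ak, whose copy is the most unique, the peaks had 3.56 in replicate 1 and 2.85 in replicate 2. The other 4 H2A genes carry changed words. That of Hist3h2a differs by G4A, counted from 1 at the 5′ end of the word, scored 11.8, and lay under the summit with 112.7, where 79.7% of words were unique. That of Hist2h2ac differs by G11A (score 9.25), that of Hist1h2aa by C17A and G20A (score 5.42), and that of Hist2h2ab by C2T, C5T and G11A (score −1.42); none of these had a listed summit within 100 bp. At Hist1h2aa 89.0% of words were unique and at Hist2h2ab 72.8%, the highest shares around the H2A words without a peak.

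Words above the threshold were found at promoters of members with a site. Of the 10 members with a site, 5 had a word above the threshold within 1 kb of the TSS, and of the 57 without one, none had. Among all protein-coding genes such a word was found in 40.8% of those with a site and in 10.4% of those without. The count of none depends on the threshold, since the H2A word fell just short of it. Of the 5 words at members with a site, 4 lay under a summit. That of Hist4h4 (score 13.1) was not within 50 bp of its summit.

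Pooled over the 7 loci, CTCF sites were denser than in the genome, but the loci varied. Counting 50 kb on each side, 51 sites lay in 1126 kb, or 45.3 per Mb, against 20.8 per Mb over the genome. The density was 39.9 per Mb inside the loci (17 sites in 426 kb) and 48.6 per Mb in the flanks (34 sites in 700 kb). Per window the density ran from 18.0 per Mb (Hist1h2bl to Hist1h2br), below the genome's, to 92.7 per Mb (Hist3h2ba to Hist3h2a). Inside, the Hist1h4h to Hist1h1a locus supplied 11 of the 17 sites and had 47.1 per Mb. The Hist1h2bl to Hist1h2br locus had 16.4 per Mb inside and the chromosome 3 locus 19.9, both below the genome's density, and the Hist1h2ah to Hist1h2bj and Hist1h2ba to Hist1h2aa loci had none. The uniqueness of the interior was lowest in the Hist1h2bl to Hist1h2br locus, where 62.2% of 36-base words occurred once. Of the 51 sites, 45 were also in the conservative list with the same bounds and summit (88.2%), against 87.5% of all optimal peaks. The conservative list is not a subset, and held 52 sites in these windows. In the Hist3h2ba to Hist3h2a window it held 14, against 10 in the optimal list and 8 when overlapping optimal peaks were merged.

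**Figure D4:**
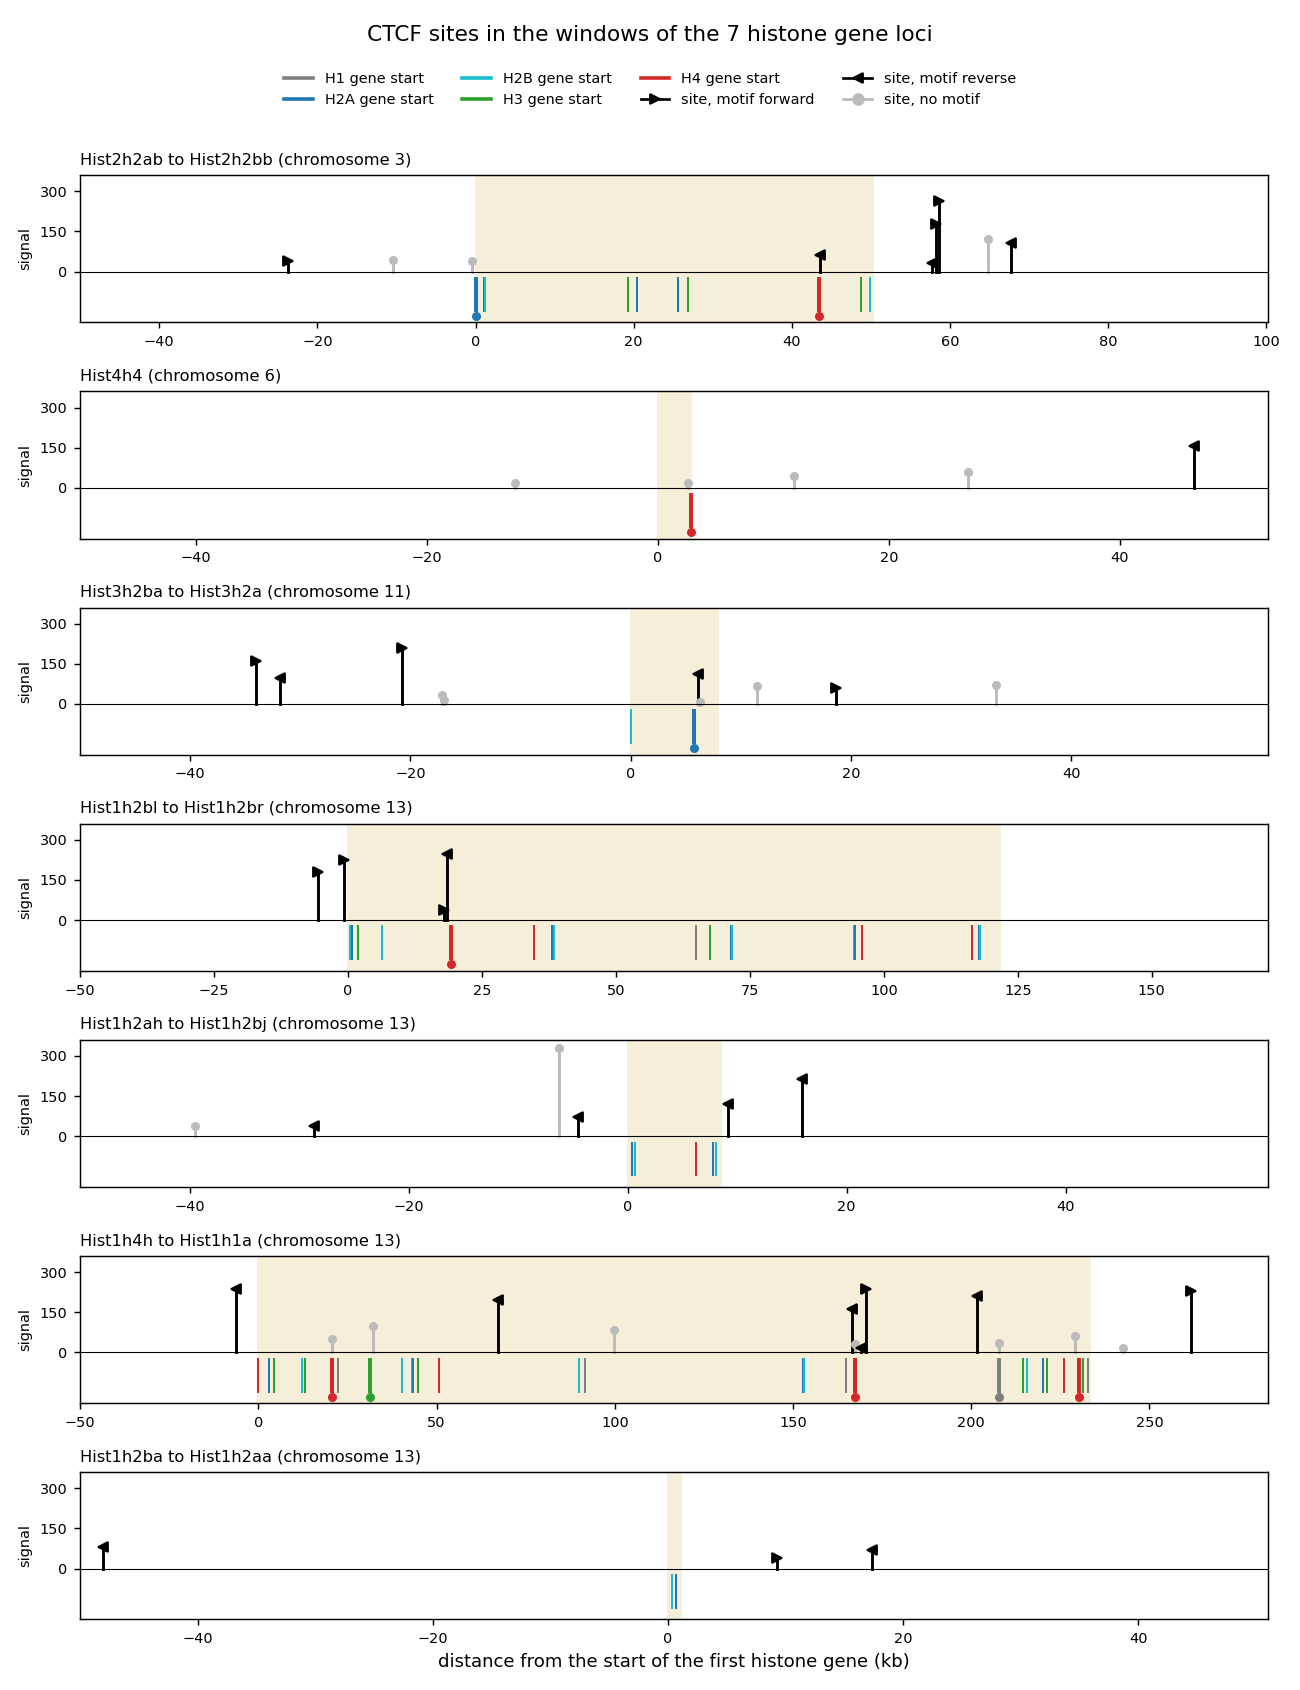
Each panel is 1 locus, with the distance in kb from the start of its first histone gene on the horizontal axis (scales differ between panels), the locus shaded, and optimal signal on the vertical axis. Bars above 0 are sites, black with an arrowhead along the motif strand or grey without a motif; coloured ticks below are TSSs by histone type, thicker with a dot where the gene has a site. The right part of the Hist1h2bl to Hist1h2br panel holds no site.

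The sites were spread unevenly over the loci. The Hist1h4h to Hist1h1a locus held 14 in its window, 11 of them inside. The Hist3 pair had 10 in its window and 2 inside, the chromosome 3 locus 9 and 1, and the Hist4h4 locus 5 and 1. The Hist1h2ah to Hist1h2bj locus had 6 and none inside, and the Hist1h2ba to Hist1h2aa pair 3 and none inside. In the Hist1h2bl to Hist1h2br locus there were 4 in the window and 2 inside, both before Hist1h4j. From the stronger of these to the end of the locus ran 103.2 kb with 14 TSSs of members and no site, and the next site lay 91.2 kb past the end. In that stretch 57.8% of 36-base words were unique, so the emptiness there was measured in part only.

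The genes at the outer borders differ in kind. Border genes here are the nearest other protein-coding genes that lie wholly outside each locus. Trim17, which shares its TSS with Hist3h2a and extends past the end of that locus, is therefore not among them. The border genes were Bola1 and Fcgr1 on chromosome 3, Gucy2c and H2afj on chromosome 6, and Rnf187 and Trim11 on chromosome 11. On chromosome 13 they were Olfr1359 and Zfp184, Prss16 and Vmn1r188, Btn2a2 and Trim38, and Slc17a4 and Scgn, in locus order. Slc17a4 lay 18.8 kb before the Hist1h2ba pair and Scgn, which encodes a calcium-binding protein, 18.6 kb after it.

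Sites in the flanks and inside the loci had overlapping signals. Inside, signals ran from 8.23 to 245.3 with a median of 62.5; in the flanks they ran from 14.5 to 328.3 with a median of 72.4; over all optimal sites the median was 62.3. The strongest site of all windows lay 6304 bp before Hist1h2ah and had 328.3 in the optimal list, 196.3 in replicate 1 and 133.9 in replicate 2, above 96.5% of all optimal sites. It carried no word above the threshold within 50 bp. Next came a site 8.40 kb past Hist2h2bb, with 262.2 in the optimal list, 142.1 in replicate 1 and 119.8 in replicate 2, which had a forward motif.

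Motif-bearing sites formed 30 of the 51 (58.8%, 45.2% to 71.2%), close to the genome's 60.9%. Inside the loci they were 9 of 17, and in the flanks 21 of 34. Among the 6 inside sites more than 1 kb from any member TSS, 5 had a motif. The sites with a motif had a median signal of 139.4 against 42.5 for those without, and over the genome these medians were 95.6 and 37.2. Of all words above the threshold in the windows, 31 of 96 lay under a summit (32.3%), against 22.2% elsewhere on the same chromosomes. At the stricter threshold it was 8 of 8, against 83.4% elsewhere.

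The 3 strongest inside sites away from promoters all lay in the Hist1h4h to Hist1h1a locus. One, 2926 bp upstream of Hist1h4c, had a forward motif and a signal of 235.5 in the optimal list, 131.5 in replicate 1 and 104.7 in replicate 2. One 6134 bp upstream of Hist1h1c had 210.6 in the optimal list, 117.7 in replicate 1 and 92.7 in replicate 2, with a reverse motif. One inside the long annotated gene Hist1h2be had 195.9 in the optimal list, 104.9 in replicate 1 and 91.7 in replicate 2, also with a reverse motif. Hist1h4c thus has 4 sites around it, including the pair counted as its promoter sites and a weak one 1521 bp upstream with 18.1 in the optimal list, 12.9 in replicate 1 and 3.98 in replicate 2.

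The motif strand at the outer edges showed no common arrangement. The nearest motif-bearing sites outside the 14 ends of the 7 loci pointed inward at 6 ends and outward at 8; among the 12 ends with such a site within 50 kb it was 6 and 6. The chromosome 3 locus had both pointing inward, 23.7 kb before Hist2h2ab (signal 39.9) and 7.50 kb past Hist2h2bb (31.4). The inward call past Hist2h2bb rests on the weakest of 3 adjacent sites, which is not in the conservative list; the next ones out, 7992 bp and 8404 bp past the locus, had 179.3 and 262.2 with outward motifs. The Hist1h4h to Hist1h1a locus had both pointing outward, 6.22 kb before Hist1h4h (237.3) and 28.3 kb past Hist1h1a (230.8). The Hist1h2ba to Hist1h2aa pair also had both outward, 48.0 kb before (82.3) and 8.21 kb after (38.3). The other 4 loci had 1 end inward and 1 outward. Inside the loci 2 of the 9 motifs were on the forward strand, and in the flanks 10 of 21.

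The first and second loci of chromosome 13 were enclosed, as a whole, by facing motifs. The site before Hist1h2bl had 223.1 in the optimal list, 120.9 in replicate 1 and 101.5 in replicate 2. The site past Hist1h2bj had 122.0 in the optimal list, 70.3 in replicate 1 and 51.4 in replicate 2. Their summits lie 329.4 kb apart and hold between them 23 members, the 3 other protein-coding genes Zfp184, Pom121l2 and Prss16, and 9 further sites, with 3 forward and 3 reverse motifs. The 2 words printed above share 15 of 20 bases, including the first 14. Peak lists do not show contacts, and whether these sites form a loop was not tested.

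Neighbouring motif-bearing sites within the windows were arranged much as elsewhere. Of 23 adjacent pairs, 7 were convergent (30.4%), 6 divergent (26.1%) and 10 in tandem (43.5%). Over the genome, pairs up to the same distance of 99.4 kb were 22.3% convergent, 25.7% divergent and 52.0% in tandem. With 23 pairs, these shares are too imprecise to set the windows apart.

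The replicates placed most of these sites alike. Of the 51, 47 had a summit within 100 bp in both replicate lists; 2 lacked one in replicate 1 and 2 in replicate 2. Over all optimal sites it was 53263 of 54943, a larger share. The median ratio of replicate 1 to replicate 2 signal was 1.26, against 1.23 over all optimal sites. Replicate 1 was the higher at 37 of the 47, against 42836 of the 53263. Across the 47, the log2 signals had a Pearson correlation of 0.829 and a Spearman correlation of 0.886, against 0.936 and 0.943 over all optimal sites. These are descriptions across sites that share libraries and 1 control. The optimal list holds peaks kept as reproducible, so the agreement was set in part by that selection and is no independent measure of repeatability. The widest ratio, 9.64, was at the second Hist3h2a summit, where the replicates placed their summits differently.

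Histone genes outside the clusters, which are expressed also outside S phase or in special cells, had a site at 5 of 14 (35.7%, 16.3% to 61.2%). H2afy2, a macroH2A gene, had 89.7 in the optimal list, 55.5 in replicate 1 and 34.7 in replicate 2. H1fx, a linker histone gene, had 85.1 in the optimal list, 55.0 in replicate 1 and 30.5 in replicate 2. H2afv, a gene of the H2A.Z kind, had 68.3 in the optimal list, 41.1 in replicate 1 and 26.6 in replicate 2. H2afx, whose protein is phosphorylated at DNA breaks, had 48.8 in the optimal list and 28.5 in replicate 1, with no matched summit in replicate 2. Hils1, a spermatid linker histone gene, had 29.6 in the optimal list, 14.3 in replicate 1 and 14.7 in replicate 2. The other 9, among them the H3.3 genes H3f3a and H3f3b and the H2A.Z gene H2afz, had none.

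Genes that serve histone transcription, pre-mRNA processing and chaperoning had a site at 9 of 21 (42.9%, 24.5% to 63.5%). Lsm11, a subunit of the U7 snRNP that cuts histone pre-mRNA, had 324.5 in the optimal list, 178.8 in replicate 1 and 149.1 in replicate 2. The H3-H4 chaperone genes Asf1b and Asf1a had 270.6 and 147.1 in the optimal list, and Hira, which deposits H3.3, had 108.3. Npat, the coactivator of histone genes, had a site 130 bp upstream with 61.2 in the optimal list, 30.98 in replicate 1 and 28.7 in replicate 2. Eri1, an exonuclease of the histone stem-loop, had 54.9, and Cpsf3, the endonuclease of 3′ processing, 21.6. Chaf1b, a subunit of the replication-coupled chaperone CAF-1, had 17.7, and Lsm10, another U7 subunit, 16.4. The remaining 12, among them Slbp, which binds the stem-loop, and Casp8ap2, had no site. Both lists stood above the 26.6% of all protein-coding genes and the clustered members below it, though both intervals include that share, and the lists were not tested against the members.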

How the data were processed

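CTCF occupancy was taken from 5 deposited peak lists in narrowPeak format on mm10: replicate 1, replicate 2, pooled reads, and the conservative and optimal lists of reproducible peaks. The authors' signal values (a signal per peak, as deposited) were used unscaled, so percentiles were taken within a list, and summits were the deposited offsets from peak starts. Per the deposited README the replicates share 1 control alignment; the aligner, peak caller, and the version and threshold of the reproducibility step are not stated in the labels or file headers. Depth is unknown, since peak lists carry peaks and not reads, and the precision it gives cannot be stated.

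Members and gene lists were chosen with earlier results of these data known. The 1 TSS per gene came from GENCODE M21 and sequence from GRCm38.p6. Of the optimal list, 10 peaks outside chromosomes 1 to 19, X and Y were not used. The motif matrix was trained on 3000 strong sites of odd autosomes, none within 500 kb of members, from a 9-base seed (AGAGGGCGC) in 15 rounds that each dropped the 30% with the lowest scores; 1% of windows shifted by 1 kb passed its threshold of 10.5, and 0.1% the stricter one of 19.4. Uniqueness was counted for 36-base words over both strands of chromosomes 1 to 19, X and Y. Named genes were all members with a site and members with peaks of both replicates among the strongest 100000. The shared H2A and H2B promoters were named by pair. The ends of each locus, its neighbours, and listed genes with a site were also named. H4 genes without a site, Hist1h1d, and members gained under other settings were named after their values were seen. With 1 group there was no test between groups, and shares carry 95% Wilson intervals. The motif scan, promoter calls and word counts were checked on simulated data. Alternatives were other peak lists, windows, flanks, joining distances and motif settings. The work ran in Python 3.11.15 with the packages matplotlib 3.10.9, numba 0.67.0, scipy 1.17.1, pandas 2.3.3 and numpy 2.4.6.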

Additional observations from a re-analysis of the deposited data

How the results depend on the processing

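Of 173 comparisons with another setting, 111 kept the reported value within the spread between the replicates or, for counts, within 1.5 times, and 62 moved. Depth, which the lists do not hold, and the near-identical copies limit what absence shows; no alternative here removes either limit. Why a value moved was not tested, except where the setting itself admits fewer or more sites. No paired analysis was possible because there was 1 group. The share of member promoters with a site was 14.9% and 17.9% with 1 replicate left out, 10.4% within 500 bp, 26.9% within 2 kb, 35.8% within 5 kb and 1.49% among the strongest 10000 optimal peaks. The share of protein-coding genes under those settings was 26.9% and 27.3%, 20.05%, 33.1%, 44.8% and 4.28%, so the members were lower under each of them. Of the 10 members with a site, 9 were kept without replicate 1, where Hist1h2bm was added and Hist4h4 lost, and 10 without replicate 2, where Hist1h2bb and Hist1h3c were added.

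Among the strongest 10000 peaks the windows held 11 sites: 1 in the chromosome 3 locus, 0 at Hist4h4, 1 at the Hist3 pair, then 2, 2, 5 and 0 in the loci of chromosome 13. Their motif share was 90.9%, 3 ends had an inward motif, 1 inside motif was forward, and the densities were 9.39 per Mb inside and 10 per Mb in the flanks. Median signal percentiles within that list were 38.6 for member promoters, 22.7 inside and 28.6 in the flanks, against 46.2, 50.1 and 54.5 in the optimal list. The value for member promoters is that of 1 site, at Hist1h4j, and the others also rest on few sites. The other histone genes then had 0% and the supply genes 9.52%.

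The median percentile at member promoters was 44.1 and 44.9 with 1 replicate left out, 48.3 in the conservative list, 50 among the strongest pooled peaks and 49.6 with overlapping peaks merged; that of inside sites was 51.6 and 54.2, 59.7, 58.5 and 53.9. The order of inside and flank sites therefore depended on the list. The motif share was 52.7% and 56.9% with 1 replicate left out, 55.8% in the conservative list and with 25 kb flanks, 41.2% within 100 bp at that window's own threshold and 15.7% at the stricter threshold. At the stricter threshold 1 end was inward and 0 inside motifs were forward; forward inside motifs numbered 1 within 100 bp and 6 with members joined under 500 kb. Density in the flanks was 55.7 and 47.1 per Mb with 1 replicate left out, 74.3 with 25 kb and 37.1 with 100 kb flanks. Density inside was 32.9 in the conservative list, 35.2 for pooled peaks, 43.6 and 35.3 with members joined under 50 kb and under 500 kb. The Hist4h4 window held 3 sites in the conservative list and among pooled peaks and 8 with 100 kb flanks, and the Hist1h2ba pair 6 with 100 kb flanks.

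The other histone genes had a site at 35.7% and 42.9% with 1 replicate left out, 50% within 2 kb, 71.4% within 5 kb and 57.1% with all transcript starts, against 33.1%, 44.8% and 34.4% of protein-coding genes under the last 3 settings. With all transcript starts the members remained at 14.9%. The supply genes had one at 47.6% with either replicate left out, among pooled peaks and with all transcript starts, at 38.1% within 500 bp and at 57.1% within 5 kb.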
